A study of Mus musculus with 6 samples.

Results

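Serpinb9 and 8 related clade B serpins were compared between H10 and C8 cells, both derived from the mouse macrophage line RAW264.7. The listed genes were Serpinb9, Serpinb9b, Serpinb9c, Serpinb9e, Serpinb6a, Serpinb6b, Serpinb1a, Serpinb2 and Serpinb8, which are 9 of the 24 clade B serpins with a feature of their own on the arrays and 9 of 19930 genes in all. H10 cells fused into multinucleated osteoclasts in the study, while C8 cells did not. Both lines carried a retroviral Lifeact-mEGFP construct with puromycin resistance and were isolated as single clones by limiting dilution. Each phenotype therefore rests on 1 line, and a difference between the lines cannot be told apart from any other difference between these 2 clones. Both lines received 60 ng/mL sRANKL for 2 days, and RNA of each was measured on 3 Affymetrix Mouse Gene 1.0 ST arrays. The authors' RMA-normalized values are on the log2 scale. Log2 fold changes are H10 minus C8.

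The 9 genes were chosen by family and with their H10 against C8 log2 fold changes on these arrays known. The paper names Serpinb9 among the genes higher in H10 cells on the same arrays, with a whole-number fold smaller than the one found here. It also followed Serpinb9 by RT-qPCR over the days of osteoclast formation in bone marrow monocytes and RAW264.7 cells. Of the genes tested there, the paper reports a significant increase for CD109 only. That was a change over time and not a comparison of H10 with C8 cells. The lines were compared with limma over all 35545 features, two-sided, with Benjamini-Hochberg adjustment. The 9 genes were part of this fit, but it used the values that were known when they were chosen, so no p-value is given for them and their calls are counted as a description only. Whether separate cultures stood behind the 3 arrays of each line is not stated in the sources, so p-values measure only the spread between arrays, which may be technical. The median log2 value was 7.69 to 7.72 in H10 and 7.65 to 7.74 in C8. The size of a fold is uncertain where the mean of a line lies under these medians, since the table holds no measure of background. The replicate 1 arrays of both lines stood apart on the second principal component, at 17.6 in H10 and 29.3 in C8, against -8.88 to -7.69 on the other H10 arrays and -17.8 to -12.5 on the other C8 arrays. Of 10 macrophage markers, 8 in H10 cells and 7 in C8 cells lay above the median of every array of the line. By limma 1 of the 10 rose and 0 fell, and this was Adgre1, which encodes the macrophage surface protein F4/80, with means of 9.58 in H10 and 7.56 in C8 cells (4.07-fold, adjusted p = 0.00114), the C8 mean lying under the array medians. The part of this difference in the serpin values was not tested. Of 10 T and NK cell markers and 8 neutrophil markers, only Cd3e did so in either line. Their mean level ranged over 6.34 to 6.39 in H10 and 6.31 to 6.52 in C8 for the T and NK cell markers, and over 6.57 to 6.61 in H10 and 6.61 to 6.72 in C8 for the neutrophil markers. Ptprc, carried by all leukocytes, was at 11.32 in H10 and 11.15 in C8 cells.

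Serpins are protease inhibitors that work by a trap. The protease cuts an exposed loop of the serpin, which then changes shape and holds the enzyme in a covalent, inactive complex. Members of clade B lack a classical secretion signal and act mostly in the cytosol and nucleus, where they guard a cell against proteases that leak from its own granules and lysosomes or that are delivered by cytotoxic lymphocytes. In the mouse their genes lie in a cluster on chromosome 13, where the Serpinb1, Serpinb6 and Serpinb9 groups have been duplicated many times, and in a cluster on chromosome 1. Of the 9 genes, 7 are on chromosome 13 and Serpinb2 and Serpinb8 are on chromosome 1.

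The largest differences among the 9 genes were in Serpinb9 and its neighbour and paralog Serpinb9b. Serpinb9 (feature 10404429), the mouse inhibitor of granzyme B, had log2 values of 9.79, 9.83 and 10.03 on the H10 arrays and of 7.66, 7.09 and 7.13 on the C8 arrays. The H10 arrays all lay above the C8 arrays, with a gap of 2.13, and C8 replicate 1 was the highest C8 array. The mean was 9.88 ± 0.13 in H10 and 7.29 ± 0.32 in C8 cells (SD, n = 3 each). H10 exceeded C8 cells 6.02-fold, by 2.59 on the log2 scale with a standard error of 0.16. Serpinb9b (feature 10404439) had 10.5, 10.22 and 10.39 in H10 cells and 7.32, 7.49 and 7.56 in C8 cells. Here the gap between the lines was 2.66, and H10 replicate 1 was the highest of all arrays. The mean of Serpinb9b was 10.37 ± 0.14 in H10 and 7.46 ± 0.12 in C8 cells (SD, n = 3 each). This was 7.53-fold, or 2.91 on the log2 scale with a standard error of 0.10. The C8 means of both genes lay under the median of each C8 array. In C8 cells 42.0% of all features were dimmer than Serpinb9 and 45.3% were dimmer than Serpinb9b, against 75.1% and 79.7% in H10 cells. Without the replicate 1 arrays of both lines, the log2 fold changes were 2.82 for Serpinb9 and 2.78 for Serpinb9b.

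**Figure D1:**
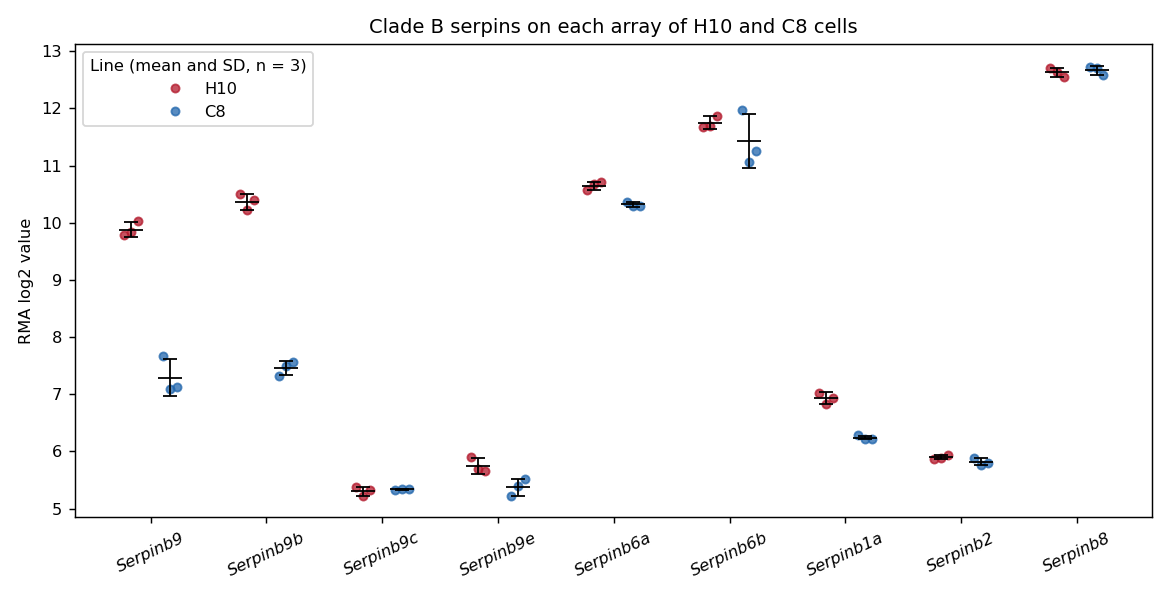
RMA log2 values (y axis) of the 9 clade B serpins (x axis) on each of 3 H10 and 3 C8 arrays, with line means and SDs. The H10 arrays lie more than 2 log2 units above the C8 arrays for Serpinb9 and Serpinb9b. Levels of different genes come from different probes and are not comparable.

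Serpinb9 and Serpinb9b were read by separate features. The annotation gave 5 transcript accessions for the Serpinb9 feature and 3 for the Serpinb9b feature, of which 0 were shared, and the features had equal values on 0 of the 6 arrays. Among the 24 clade B features with 1 symbol, 0 pairs shared an accession. Probe sequences were not used here, so whether single probes of one gene also bind the transcript of the other was not tested. Of the 9 genes, 1 was also on shared features. Serpinb9e stood with Serpinb9d, Serpinb9f and Serpinb9g on 3 features that were annotated with all 4 symbols. These features had means of 6.32, 6.19 and 6.02 in H10 cells and of 6.20, 6.11 and 5.95 in C8 cells, with log2 fold changes of 0.11, 0.08 and 0.07 (adjusted p = 0.634, 0.724 and 0.793 from limma). Their levels lay under the median of every array, and no value of theirs can be given to a single gene.

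The 250 bases before the start of Serpinb9, Serpinb9b and Serpinb9e are printed here because the first pair differed most between the lines while Serpinb9e, of the same gene group, did not. The sequences are from RefSeq (GRCm38.p6), all on the plus strand, at chr13:33004291-33004540, chr13:33027164-33027413 and chr13:33249358-33249607. Capitals mark matches, on either strand, to the core of the interferon-stimulated response element (GAAA, any 2 bases, GAAA), the gamma-activated site (TTCNNNGAA), the AP-1 site (TGANTCA) or the core of the PU.1 site (GAGGAA).
Serpinb9: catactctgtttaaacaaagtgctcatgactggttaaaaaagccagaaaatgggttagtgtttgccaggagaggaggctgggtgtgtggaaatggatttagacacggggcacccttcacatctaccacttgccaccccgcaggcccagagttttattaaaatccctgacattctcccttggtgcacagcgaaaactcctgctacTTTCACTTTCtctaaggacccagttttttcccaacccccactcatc
Serpinb9b: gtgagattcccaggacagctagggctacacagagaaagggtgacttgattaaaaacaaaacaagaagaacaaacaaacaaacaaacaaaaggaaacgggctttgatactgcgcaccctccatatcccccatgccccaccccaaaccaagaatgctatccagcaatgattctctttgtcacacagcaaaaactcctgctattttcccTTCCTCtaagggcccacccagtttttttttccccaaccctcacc
Serpinb9e: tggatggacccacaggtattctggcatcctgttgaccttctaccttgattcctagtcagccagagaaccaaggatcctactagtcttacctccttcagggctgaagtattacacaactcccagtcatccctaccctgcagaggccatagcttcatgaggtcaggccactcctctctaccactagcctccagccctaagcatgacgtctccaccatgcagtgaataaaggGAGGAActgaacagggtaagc

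In the Serpinb9 sequence the interferon-stimulated response element core matched at positions -46 to -37 from the start, on the minus strand. The Serpinb9b sequence has a PU.1 core at positions -44 to -39 and that of Serpinb9e has one at -21 to -16. Of 26 clade B serpins with such a sequence, 2 had a match to the response element core, Serpinb9 and Serpinb6a, and 2.98% of 32851 promoter sequences of this length hold one. The AP-1 site was found in 7 of 11 clade B serpins of chromosome 1, among them Serpinb2 and Serpinb8, and in 0 of 15 of chromosome 13, against 6.75% of all promoters. The PU.1 core was found in 8 of 15 on chromosome 13 and in 0 of 11 on chromosome 1, against 23.3% of all promoters. The gamma-activated site was found in 3 of the 26 genes, Serpinb2, Serpinb6a and Serpinb9c, against 7.02% of all promoters. The genes are duplicates of each other, so these counts are not independent, and the sequences of Serpinb9d, Serpinb9e, Serpinb9f and Serpinb9g were 90.6% to 99.1% identical in pairs. Those of Serpinb9 and Serpinb9b were 68.1% identical over 226 aligned bases, with gaps left out of the share. This lies within the range of Serpinb9 against the 24 other clade B sequences (54.0% to 69.5%). It lies above the range of Serpinb9b against them (52.0% to 63.8%). The 69.5% was that of Serpinb9 and Serpinb6e, over fewer aligned bases (197). A gene counted once where any of its start sites had a match, while the shares of all promoters count each sequence by itself. The gene counts and these shares are therefore not the same measure. A match is a description of letters and was not tested as a site.

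Serpinb9c, Serpinb9e and Serpinb9d, of the same gene group, were dim in both lines. Serpinb9c had 5.37, 5.22 and 5.32 in H10 cells and 5.33, 5.35 and 5.35 in C8 cells, and the arrays overlapped (log2 fold change -0.04, standard error 0.06). Serpinb9e had 5.91, 5.69 and 5.65 in H10 cells and 5.22, 5.39 and 5.51 in C8 cells. Its H10 arrays lay above its C8 arrays by a gap of 0.14, and the log2 fold change was 0.38 (standard error 0.11), or 0.22 without the replicate 1 arrays of both lines. Serpinb9d, which is not in the list, averaged 4.73 in both lines, with a log2 fold change of 0.00 (adjusted p = 0.997 from limma). The means of Serpinb9c and Serpinb9e lay under the median of every array, with 11.2% to 15.7% of features dimmer in H10 cells and 11.7% to 11.9% in C8 cells.

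Of the Serpinb6 group, Serpinb6a and Serpinb6b were bright in both lines, with log2 fold changes well under those of Serpinb9 and Serpinb9b. Serpinb6a, the mouse counterpart of the human cathepsin G inhibitor SERPINB6, had 10.57, 10.68 and 10.71 in H10 cells and 10.36, 10.3 and 10.29 in C8 cells. The arrays did not overlap, and the difference was 1.26-fold (log2 fold change 0.34, standard error 0.06, 95% interval 0.18 to 0.49). Serpinb6b, a mouse inhibitor of granzyme A, had 11.68, 11.69 and 11.87 in H10 cells and 11.98, 11.06 and 11.26 in C8 cells. C8 replicate 1 was the highest of all arrays, and the SD was 0.11 in H10 cells and 0.48 in C8 cells, where 97.4% of all features had a smaller one. The log2 fold change of Serpinb6b was 0.31 (standard error 0.23, 95% interval -0.24 to 0.86), and it was 0.62 without the replicate 1 arrays of both lines.

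Serpinb1a, an inhibitor of neutrophil elastase, proteinase 3 and cathepsin G, had 7.02, 6.82 and 6.94 in H10 cells and 6.28, 6.22 and 6.22 in C8 cells. The H10 arrays lay above the C8 arrays by a gap of 0.54, and the arrays of each line were close together. The difference was 1.61-fold (log2 fold change 0.69, standard error 0.07), and both means, 6.93 in H10 and 6.24 in C8 cells, lay under the median of every array. On chromosome 1, Serpinb2, the urokinase inhibitor also called PAI-2 and known for its induction in activated macrophages, had 5.87, 5.88 and 5.94 in H10 cells and 5.88, 5.77 and 5.8 in C8 cells. It was dim in both lines, with overlapping arrays and a log2 fold change of 0.08 (standard error 0.06). Serpinb8, whose human counterpart inhibits furin, had 12.7, 12.63 and 12.55 in H10 cells and 12.73, 12.71 and 12.58 in C8 cells. Over 95% of all features were dimmer than Serpinb8 in either line, its arrays overlapped, and its log2 fold change was -0.05 (standard error 0.07, 95% interval -0.22 to 0.13).

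By limma at an adjusted p under 0.05, 3 of the 9 genes were higher in H10 cells (Serpinb9, Serpinb9b and Serpinb1a), 0 were lower and 6 did not pass, and at an unadjusted p under 0.05 the counts were 5 and 0. Of all genes, 1.85% were higher and 1.04% lower at an adjusted p under 0.05, 2.9% in either direction, as were 2.12% of all features. Among all 19930 genes, 1216 were higher and 1528 lower at an unadjusted p under 0.05. The H10 arrays lay above the C8 arrays for 5 of the 9 genes and for 7.74% of all genes, and below them for 0 of the 9 and for 12.7% of all genes. The list was drawn up from this contrast, so nothing is read from these shares. The median log2 fold change was 0.34 over the 9 genes and -0.03 over all genes. Serpinb1a was not called without H10 replicate 3, and Serpinb6a was called in 4 of 13 alternative fits.

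The 15 clade B serpins outside the list were mostly dim, and 13 of them lay under the table median in both lines. By limma 1 of them, Serpinb11, rose and 0 fell, against 1.85% and 1.04% of all genes. At an unadjusted p under 0.05 the counts were 3 and 0 of the 15, against 1216 higher and 1528 lower of all 19930 genes. Serpinb11, on chromosome 1, had 8.21, 7.34 and 7.97 in H10 cells and 6.21, 5.37 and 4.97 in C8 cells. The lines did not overlap, although the arrays within each were spread, with an SD of 0.45 in H10 and 0.63 in C8 cells. It was 5.0-fold higher in H10 cells, with a log2 fold change of 2.32 and a standard error of 0.35 (adjusted p = 0.0287, limma). With 13.3% of features dimmer in C8 cells, the size of this fold is uncertain. The rise did not pass without replicate 1 or 3 of H10 (adjusted p = 0.088 and 0.124) or without replicate 2 or 3 of C8 (adjusted p = 0.113 and 0.0883). Serpinb7, the gene next to Serpinb11, had a log2 fold change of 0.69 with overlapping arrays (standard error of 0.25, limma adjusted p = 0.322). Serpinb1b and Serpinb1c, paralogs of Serpinb1a, differed by 0.35 and 0.32 (adjusted p = 0.432 and 0.234) on the log2 scale. The median over these 15 genes was 0.05. Serpinb11 was named by a rule that takes the largest changes that passed, so it too was chosen by its result. The other genes named here and Serpinb9d were picked after their values were seen.

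**Figure D2:**
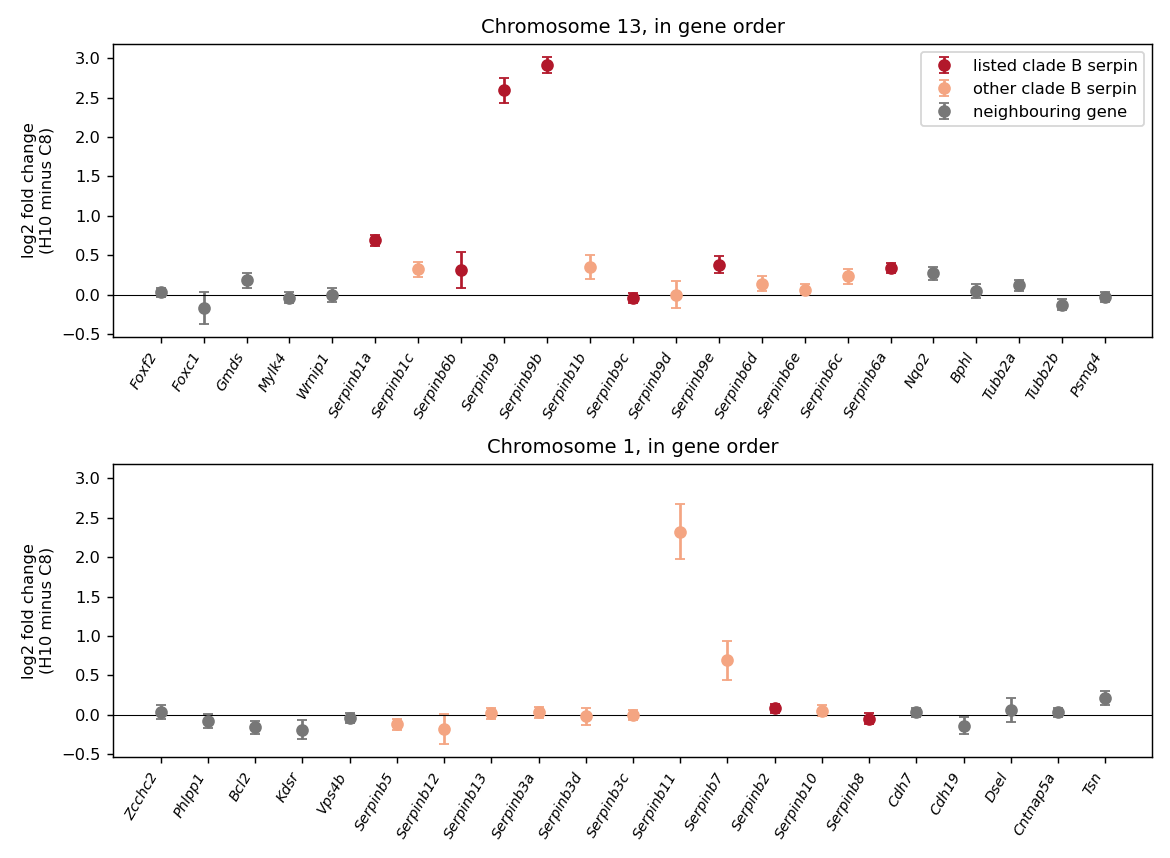
Log2 fold change, H10 minus C8, with standard error (y axis), of the clade B serpins and the 5 measured genes on each side, in gene order along chromosomes 13 and 1 (x axis). Serpinb9 and Serpinb9b stand side by side above their neighbours, and Serpinb11 stands above its neighbours on chromosome 1.

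Along chromosome 13, Serpinb9 and Serpinb9b were adjacent among the measured genes. On one side of the pair lay Serpinb6b and on the other Serpinb1b, with log2 fold changes of 0.31 and 0.35. The gene order was taken from the gene table of GRCm38.p6. None of the 20 measured genes that flank the clusters of chromosomes 13 and 1 passed the test by limma. With 2.9% of all genes called in either direction, 0 of 20 is near that share. At an unadjusted p under 0.05, 1 of the 20 genes was higher and 0 were lower, against 1216 and 1528 of all 19930 genes. Their log2 fold changes were between -0.19 and 0.27, with a median of 0.01, and the highest was that of Nqo2, a quinone reductase gene next to Serpinb6a (adjusted p = 0.224), picked after its value was seen.

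Serpins of other clades, most of which are secreted, did not pass the test in either direction. Of 24 such genes, 0 were higher and 0 lower by limma. At an unadjusted p under 0.05 the counts were 0 and 1, against 1216 higher and 1528 lower of all 19930 genes. At an adjusted p under 0.05, 2.9% of all genes were called in either direction, and 0 of 24 is near that share. The log2 fold changes ran between -0.18 and 0.10, with a median of -0.03. Of these genes, 23 lay under the table median in both lines. Serpinf1, which encodes the secreted serpin PEDF, averaged 7.47 in H10 and 7.57 in C8 cells (log2 fold change -0.09, standard error 0.07, adjusted p = 0.745).

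**Figure D3:**
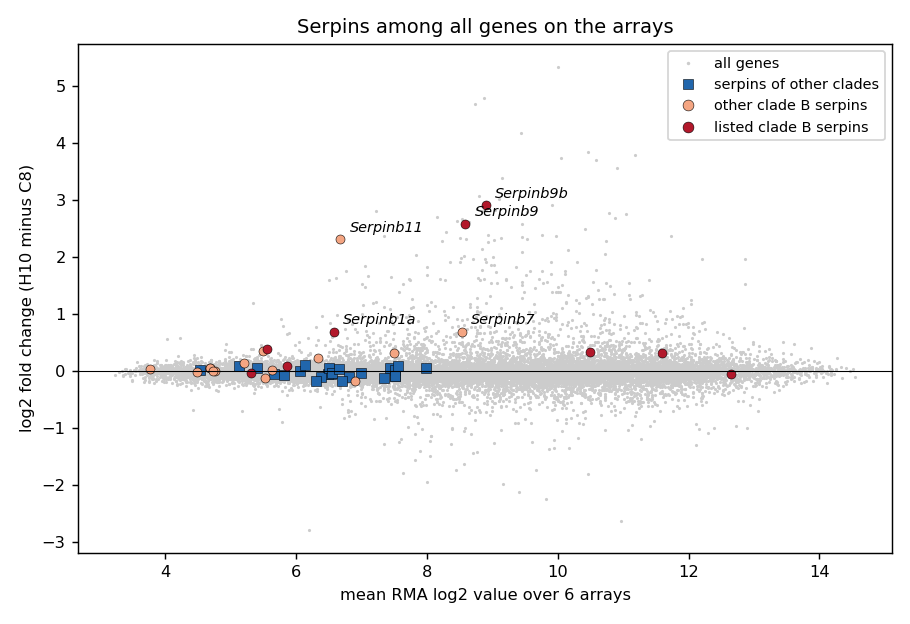
Log2 fold change, H10 minus C8 (y axis), against the mean RMA log2 value over 6 arrays (x axis) for all 19930 genes, with the serpins marked. Serpinb9b, Serpinb9 and Serpinb11 lie above 2, and the serpins of other clades lie between -0.18 and 0.10.

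Some proteases of the kinds that clade B serpins act on differed between the lines. Of 19 proteases and partner genes, 4 rose, 1 fell and 14 did not pass, against 1.85% higher and 1.04% lower of all genes. At an unadjusted p under 0.05, 5 of the 19 were higher and 2 lower, against 1216 higher and 1528 lower of all 19930 genes. The median log2 fold change of the 19 genes was 0.04. Plau, which encodes urokinase, the target of Serpinb2, had 11.59, 11.46 and 11.59 in H10 cells and 10.32, 9.97 and 9.84 in C8 cells. All H10 arrays were above the C8 arrays by at least 1.14, and H10 exceeded C8 cells 2.83-fold (1.5 on the log2 scale with a standard error of 0.13, limma adjusted p = 0.00369). Casp1, which encodes the protease that processes interleukin-1β, rose by 1.03 on the log2 scale (standard error 0.12, adjusted p = 0.0107), and the lysosomal cathepsin gene Ctss rose by 0.86 (standard error 0.14, adjusted p = 0.0376). Furin, a convertase of the secretory pathway and the target of human SERPINB8, fell by 0.59 (standard error 0.09, adjusted p = 0.024), with means of 11.20 in H10 and 11.78 in C8 cells. The cathepsin gene Ctsb, named after its value was seen, rose by 0.50 (standard error 0.08, adjusted p = 0.0304). Plau, Casp1, Ctss and Furin were named as the largest changes that passed, so they too were chosen by their results. Without 1 array, Casp1 did not pass when H10 replicate 2 or 3 or C8 replicate 2 was left out (adjusted p = 0.0543, 0.0621 and 0.0584), and Ctss, Furin and Ctsb did not pass when H10 replicate 2 or 3 or any C8 replicate was left out (adjusted p = 0.0506 to 0.153).

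The proteases of cytotoxic lymphocytes and neutrophils, on which Serpinb9, Serpinb6b and Serpinb1a act, stayed low. Gzmb, the target of Serpinb9, had 6.7, 6.72 and 6.59 in H10 cells and 6.52, 6.84 and 6.67 in C8 cells. The arrays overlapped, and the log2 fold change was -0.01 (95% interval -0.23 to 0.22, limma adjusted p = 0.991). Gzma, the target of Serpinb6b, had means of 5.43 in H10 and 5.66 in C8 cells (adjusted p = 0.356). Gzmm and the partner gene Prf1 had means of 7.54 and 7.75 in H10 cells and 7.55 and 7.66 in C8 cells (limma adjusted p = 0.994 and 0.714). The H10 mean of Prf1 lay just above the H10 array medians of 7.69 to 7.72. Elane, Prtn3 and Ctsg, which encode the neutrophil proteases that Serpinb1a inhibits, had means of 7.41, 7.36 and 6.63 in H10 cells and 7.51, 7.38 and 6.57 in C8 cells, all under the median of every array. Ctsl, a lysosomal protease, was bright in both lines, with means of 13.20 in H10 and 13.13 in C8 cells (log2 fold change 0.07, adjusted p = 0.796). Gzma, Gzmm, Prf1, Elane, Prtn3 and Ctsg were picked after their values were seen.

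**Figure D4:**
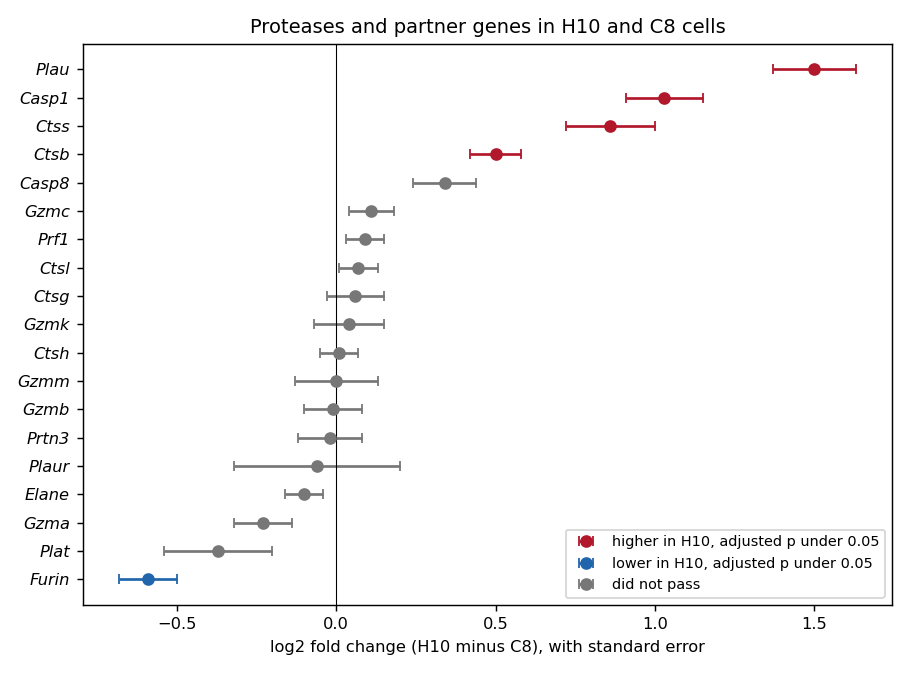
Log2 fold change, H10 minus C8, with standard error (x axis), of 19 proteases and partner genes (y axis), coloured by whether they passed an adjusted p of 0.05. Plau, Casp1, Ctss and Ctsb lie to the right of 0, Furin to the left, and Gzmb near 0.

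The genes with the pattern most like that of Serpinb9 were found by the mean absolute difference of log2 values over the 6 arrays, each gene centred on its own mean. They were Bco2, a carotenoid-cleaving enzyme gene, at 0.140, Prdm1, a transcriptional repressor gene, at 0.141, Ddx58, which encodes the RNA sensor RIG-I, at 0.142, the ADP-ribosyltransferase gene Parp14 at 0.148, and Oasl1, of the oligoadenylate synthetase-like genes, at 0.155. Ddx58 had 12.1, 12.64 and 12.51 in H10 cells and 9.94, 9.43 and 9.62 in C8 cells. As in Serpinb9, the first H10 value was the lowest of its line and the first C8 value the highest. Serpinb9b was the gene with rank 21 by this measure, at 0.222. For Serpinb9b itself the nearest gene was Syt5, of the synaptotagmins, at 0.0678, followed by Epsti1 at 0.179, the MHC class I gene H2-T24 at 0.197, and Xaf1 and Prdm1 at 0.201, and Serpinb9 had rank 6. Syt5 had 10.18, 10.17 and 10.21 in H10 cells and 7.18, 7.35 and 7.5 in C8 cells. In Serpinb9b H10 replicate 1 was the highest H10 array, whereas in Epsti1, H2-T24 and Xaf1 it was the lowest. The likeness is over 6 arrays of 2 lines and is mostly the difference between the lines.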

How the data were processed

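RNA of 3 H10 and 3 C8 arrays (Affymetrix Mouse Gene 1.0 ST) was measured. The authors normalized the intensities with RMA and deposited log2 values for 35545 features. Affymetrix Expression Console is named in the notes of the submitters (version not given in the sources used here). Values were used as deposited, with 2 decimals, 0 missing entries and no filter. Lines were taken from the labels.

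GEO's platform annotation gave 1 symbol for 21781 features (19930 genes) and several for 1621. A gene was represented by its feature with the highest mean. The fit was limma 3.58.1 in R 4.3.3 (lmFit, eBayes), as in the paper's methods, with 4 residual and 2.57 prior degrees of freedom. On simulated H10 against C8 data with 35545 features, 87% of log2 changes of 1 and 98% of log2 changes of 2.5 were recovered. Of the calls in these simulated data, 3.65% were false. The simulation used independent normal noise for each feature and no shift of whole arrays, so its shares may not hold for the real arrays.

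The listed genes, other lists, motifs and tests were chosen with earlier results of these data known. Named genes were the 9 listed, the largest changes that passed in each other group, Serpinf1, Gzmb and Ctsl, and the 5 genes most like Serpinb9 and Serpinb9b. Others are stated as picked after their values were seen. The lists of macrophage, osteoclast, T and NK cell, neutrophil and keratinocyte and epithelial markers were checked. Of 10 osteoclast markers 6 were higher in H10 cells, of 10 macrophage markers 1, and of 10 T and NK cell, 8 neutrophil and 8 keratinocyte and epithelial markers 0. In these lists 0 were lower. Promoter sequences (RefSeq, GRCm38.p6) matched 8 of the 9 genes by symbol and were aligned with Biopython 1.88. Serpinb1a was not matched. Alternatives were leaving out each array, a block for the replicate number, centring on medians, quantile normalization, dropping dim features, averaging the features of a gene, and an intensity trend with a robust prior. Leaving out replicate 1 of both lines was added after seeing the data. The number of arrays limits the precision. Figures were drawn with matplotlib 3.10.9.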

Additional observations from a re-analysis of the deposited data

How the results depend on the processing

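The log2 fold changes of Serpinb9 and Serpinb9b were 2.49 to 2.82 and 2.78 to 2.99 under the 13 alternatives. Leaving out arrays could not turn their direction, since their H10 and C8 arrays did not overlap. The filter, the trend with a robust prior, the block and the averaging of features leave these 2 estimates as they are. The log2 fold changes of Serpinb6b and Serpinb11 ran over 0.13 to 0.62 and 2.05 to 2.67. Serpinb9c, Serpinb9e, Serpinb1a, Serpinb2 and Serpinb11 are dropped by the filter on dim features. Of the 9 genes, 3 were higher in the full fit, 2 to 3 when 1 array was left out, and 4 with quantile normalization, with an intensity trend and robust prior, and when features were averaged per gene. Serpinb6a was called in those 3 fits and with the filter on dim features. None of the 9 genes was lower in any of these fits. Of all 24 clade B serpins, 4 were higher in the full fit and 2 to 4 when 1 array was left out, with 2 without H10 replicate 3, and 5 were higher under the same 3 alternatives, and 0 were lower. Of the proteases and partners, 1 to 4 were higher and 0 to 1 lower when 1 array was left out, and with the replicate number as a block 2 were higher and 0 lower. Under the block Casp1, Furin and Ctsb did not pass (adjusted p = 0.0507, 0.0893 and 0.0622), nor did Furin and Ctsb without replicate 1 of both lines (adjusted p = 0.0691 and 0.0593). The block left the counts of 3 listed genes and 4 clade B serpins as they were. Correlations of deviations from the line means were 0.166, -0.0043 and -0.121 for same-numbered arrays of replicates 1, 2 and 3. Those of differently numbered arrays ran from -0.182 to 0.227. The replicate 1 arrays of both lines stood apart on the second principal component. Whether the replicate numbers pair the arrays cannot be told from these values. The serpins of other clades and the flanking genes had 0 calls under every alternative. The filter on dim features left only 1 of the 24 serpins of other clades and 13 of the 20 flanking genes to test. Over all genes, 2.90% were called in the full fit and 0.963% to 8.34% under the alternatives, and the median log2 fold change was -0.04 to -0.01. With no measure of background, folds of dim genes are uncertain.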
